A study of Mus musculus with 8 samples.

Results

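Immediate-early genes are switched on within minutes of a growth factor, serum or stress signal, without any new protein having to be made. The signal runs through mitogen-activated protein (MAP) kinases to transcription factors already present, chiefly the serum response factor SRF with its partners and the cyclic AMP response factor CREB. Many of the induced proteins are themselves transcription factors, while others, such as the Dusp phosphatases and the mRNA-decay factor Zfp36, limit the response, and most of the transcripts are short-lived. In preadipocytes, the cells that can become fat cells, Fos, Egr2 and Klf4 belong to the early response that follows adipogenic stimulation.

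The genes described here were 44 immediate-early and rapid-response genes, read in subcutaneous preadipocytes with and without Dicer, the RNase that cuts microRNAs out of their precursors. The list was chosen by gene name, with the values of these 8 arrays already known, among them the levels on odd- and even-numbered replicates in both groups. All values of Dicer knockout against control, and of odd- against even-numbered replicates, are therefore given as descriptions. The 44 genes had 76 probe sets with 1 gene symbol, of 45101 probe sets on the array. Of these 76, 67 probe sets of 43 genes passed the filter on low signal, and Nr4a3, an orphan nuclear receptor, had no probe set that did.

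Dicer knockout arrays carried RNA of preadipocytes with the genotype Dicer lox/lox on the C57BL/6 background, given an adenovirus that expresses Cre recombinase and eGFP from the CMV promoter (Ad5CMVCre-eGFP). Control arrays carried RNA of preadipocytes of the same genotype and background, given the adenovirus with eGFP alone (Ad5CMVeGFP). Both groups came from newborn mice of day 2, were infected at a multiplicity of 750 with 4 µg/mL polybrene, and were collected after 4 days. Each group had 4 arrays, labelled as biological replicates 1 to 4. The labels name no animals or cultures, so errors and p-values cover only the spread among these 8 samples, which may be technical. No array held cells with the Cre virus and an intact, unfloxed Dicer gene, so effects of Cre and of Dicer loss cannot be told apart. Where the RNA is from a cell population, fewer responding cells and less RNA per cell cannot be told apart either.

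The 2 probe sets of the targeted gene, Dicer1, overlapped between the groups. They had 488 to 754 and 1110 to 1404 signal units on knockout arrays, against 391 to 1045 and 1141 to 2114 on control arrays. The labels do not say which exons Cre removes, so these probe sets do not check the knockout. The median signal was 321 to 419 units over the 8 arrays. The summed signal of 11 preadipocyte markers, of which 10 were tested and Adipoq was too dim, was 243146 to 294346 on knockout and 258929 to 301514 on control arrays. Among them Dlk1, which preadipocytes lose as they differentiate, had 60140, 25168, 24503 and 15604 on knockout arrays 1 to 4 against 72944, 44809, 50687 and 26167 on control arrays 1 to 4. It was lower in knockout cells by the paired limma fit only (difference -0.72, adjusted p 0.0436, against 0.9994 unpaired), and its odd minus even difference was 0.89. Of the 10 tested markers, 6 had a knockout minus control difference above 0, among them Zfp423 at 0.64, Fabp4 at 0.55 and Pparg at 0.28, and 0 were called higher. Most of the preadipocyte sum was collagen, with Col3a1 at 97572 to 157473 and Col1a1 at 48842 to 80847 over the 8 arrays. Macrophage and leukocyte markers summed to 3688 to 4141 on knockout and 3686 to 4767 on control arrays, and the myeloid integrin Itgam was at or under the 20th percentile of all values on all 8.

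Upstream sequence was available for 31 of the 44 genes, as 41 windows from 250 bases before to 50 after a gene's start (RefSeq, GRCm38.p6). The CArG box, to which SRF binds, was found in 8 of these windows, 19.5%, against 1.63% of all 32851 windows. These 8 windows belonged to 5 genes, Dusp5, Egr2, Rnd3, Srf and Zfp36, and 3 of the 4 windows of Egr2 overlap each other. The cyclic AMP response element TGACGTCA was in 3 windows, 7.32%, of Dusp1, Errfi1 and Maff, against 1.79% of all windows. The letters TATAAA were in 8 windows, 19.5%, against 13.6%. The AP-1 site TGACTCA was in 1, of Csrnp1, 2.44% against 5.2%. The EGR site GCGTGGGCG was in 1, of Maff, 2.44% against 0.612%. Both strands were searched, each motif was counted on its own, and a match describes the letters of the window and no binding.

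The 250 bases before the start are shown for the 6 genes that had the largest differences between odd- and even-numbered replicates, 5′ to 3′ on the gene's strand. Capitals mark the cyclic AMP response element in Dusp1, CArG boxes in Dusp5 and Zfp36, and the TATA box in Fos.
Dusp1 promoter, chr17:26508473-26508722, minus strand: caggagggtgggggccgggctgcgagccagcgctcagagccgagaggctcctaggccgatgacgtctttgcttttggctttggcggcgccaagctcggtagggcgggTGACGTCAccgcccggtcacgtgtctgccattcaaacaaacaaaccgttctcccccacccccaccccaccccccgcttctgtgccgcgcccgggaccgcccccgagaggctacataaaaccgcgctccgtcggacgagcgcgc
Dusp5 promoter, chr19:53528895-53529144, plus strand: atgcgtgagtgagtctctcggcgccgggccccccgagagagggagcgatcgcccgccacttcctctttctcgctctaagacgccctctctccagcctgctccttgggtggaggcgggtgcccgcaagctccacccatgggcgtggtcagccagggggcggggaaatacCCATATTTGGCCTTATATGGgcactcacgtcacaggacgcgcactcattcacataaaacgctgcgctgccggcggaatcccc
Zfp36 promoter, chr7:28379229-28379478, minus strand: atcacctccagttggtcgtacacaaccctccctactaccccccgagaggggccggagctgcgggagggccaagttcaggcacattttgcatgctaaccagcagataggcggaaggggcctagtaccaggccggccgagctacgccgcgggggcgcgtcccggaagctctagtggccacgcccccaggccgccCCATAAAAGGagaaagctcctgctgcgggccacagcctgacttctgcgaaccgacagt
Fos promoter, chr12:85473640-85473889, plus strand: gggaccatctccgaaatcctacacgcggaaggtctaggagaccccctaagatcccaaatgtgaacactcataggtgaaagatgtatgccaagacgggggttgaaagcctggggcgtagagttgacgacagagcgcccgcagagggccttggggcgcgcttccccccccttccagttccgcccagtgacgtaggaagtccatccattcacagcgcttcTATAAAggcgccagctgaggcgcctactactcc
Fosb promoter, chr7:19310046-19310295, minus strand: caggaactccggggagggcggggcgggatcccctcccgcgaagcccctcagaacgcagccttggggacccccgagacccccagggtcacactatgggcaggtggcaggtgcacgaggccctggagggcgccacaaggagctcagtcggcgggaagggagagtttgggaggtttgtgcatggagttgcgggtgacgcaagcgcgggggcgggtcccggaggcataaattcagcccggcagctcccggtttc
Ptgs2 promoter, chr1:150099781-150100030, plus strand: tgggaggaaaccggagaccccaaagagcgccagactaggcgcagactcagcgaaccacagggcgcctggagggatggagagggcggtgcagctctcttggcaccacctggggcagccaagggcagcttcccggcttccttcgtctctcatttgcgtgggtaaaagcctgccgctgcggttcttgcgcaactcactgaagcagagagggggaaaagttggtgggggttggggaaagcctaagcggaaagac
The element in Dusp1 begins 143 bases before the start. The CArG boxes of Dusp5 adjoin each other, at 82 and 72 bases, and that of Zfp36 begins at 58 bases. The TATA box of Fos begins at 33 bases, and Fosb and Ptgs2 held none of the 5 motifs in this window.

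On odd-numbered replicates, in both groups, a subset of the genes had higher signal than on even-numbered ones. The leading members were Ptgs2, Dusp5, Fos, Dusp1, Fosb and Zfp36, each with an odd minus even difference of at least 1 on the log2(signal + 73.1) scale. This count of 6 was 14% of the 43 genes, while 0.588% of all 13259 tested genes differed that far upward. Of the 43 genes, 0 had a difference of -1 or less, against 0.294% of all genes. The 4 odd-numbered arrays all lay above the 4 even-numbered ones for 15 genes, or 34.9%, against 5.5% of all genes, and all below for 0, against 5.79%. Because the list was drawn up with this split in view, nothing is read from these counts. The median difference was 0.25 over the 43 genes, ranging from -0.57 to 1.93, and -0.02 over all tested genes.

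**Figure D1:**
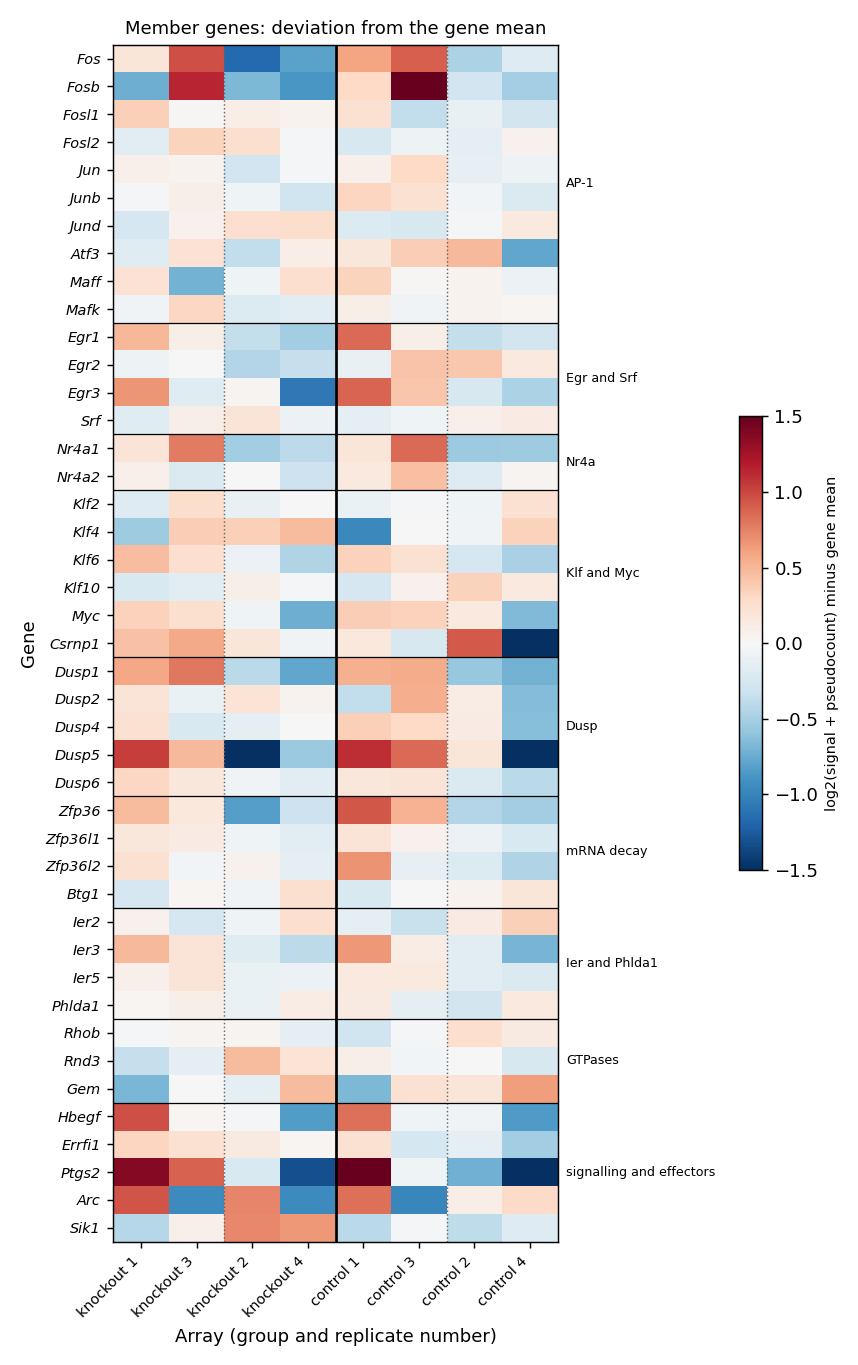
Deviation of log2(signal + 73.1) from each gene's mean over the 8 arrays, for the 43 genes with a tested probe set, in rows grouped by role. Columns are arrays, knockout left of control and, within each group, odd-numbered left of even-numbered; values beyond 1.5 in either direction have the end colours. Dusp5, Fos and Dusp1 are red in odd-numbered and mostly blue in even-numbered columns of both groups. Ptgs2 has the same pattern, except that the lower of its odd-numbered control columns lies slightly below the gene's mean.

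Ptgs2 encodes cyclooxygenase 2, which starts prostaglandin synthesis. Its signal was 3603 and 2532 on knockout arrays 1 and 3 and 4365 and 1271 on control arrays 1 and 3. Its signal was 1130 and 491 on knockout arrays 2 and 4 and 782 and 399 on control arrays 2 and 4. The lowest odd-numbered array, control 3, lay just above the highest even-numbered one, knockout 2. The difference of 1.93, or 3.80-fold, ranked 1 of 13259 genes, and it was 1.91 within knockout and 1.94 within control arrays. Its other probe set, too dim to be tested, gave 1.41.

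Dusp5 and Dusp1 are phosphatases that inactivate MAP kinases, Dusp5 acting on ERK in the nucleus. Dusp5 had signals of 1409 and 935 on knockout arrays 1 and 3 and 1480 and 1233 on control arrays 1 and 3, against 183 and 419 on knockout arrays 2 and 4 and 744 and 165 on control arrays 2 and 4. The difference was 1.74, or 3.33-fold, rank 3 of all genes, although the even-numbered values themselves were widely spread. Dusp1 was more uniform: 9538 and 11100 on knockout arrays 1 and 3 and 9239 and 9445 on control arrays 1 and 3, against 4788 and 3691 on knockout arrays 2 and 4 and 4284 and 3874 on control arrays 2 and 4. Its difference was 1.23, or 2.35-fold. Odd against even accounted for 96.1% of the sum of squares of Dusp1 over the 8 arrays. The cytoplasmic ERK phosphatase Dusp6 differed by 0.42 without overlap. It had 1958 and 1771 on knockout arrays 1 and 3 and 1778 and 1805 on control arrays 1 and 3, against 1506 and 1405 on knockout arrays 2 and 4 and 1345 and 1165 on control arrays 2 and 4. Dusp2 and Dusp4, phosphatases of the same family, were at 0.14 and 0.32 and overlapped.

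Fos, the DNA-binding partner of Jun in the transcription factor AP-1, had signals of 9604 and 16626 on knockout arrays 1 and 3 and 12785 and 15846 on control arrays 1 and 3. On even-numbered arrays Fos had 3753 and 4841 in knockout and 6098 and 7395 in control cells. The difference was 1.31, or 2.49-fold. Its relative Fosb differed by 1.17 and was highest on replicate 3 in both groups: 203 and 941 on knockout arrays 1 and 3 and 491 and 1347 on control arrays 1 and 3, against 214 and 176 on knockout arrays 2 and 4 and 304 and 248 on control arrays 2 and 4. The Fosb ranges overlapped, since knockout array 1 was below 3 of the even-numbered arrays. Without both arrays of replicate 3 the Fosb difference was 0.37. Jun and Junb were higher on odd-numbered arrays without overlap but by less, 0.25 and 0.31. Jun had 5496 and 5433 on knockout arrays 1 and 3 and 5499 and 6466 on control arrays 1 and 3, against 4261 and 5156 on knockout arrays 2 and 4 and 4787 and 4947 on control arrays 2 and 4. Junb had 2472 and 2687 on knockout arrays 1 and 3 and 3155 and 2963 on control arrays 1 and 3, against 2407 and 2041 on knockout arrays 2 and 4 and 2455 and 2153 on control arrays 2 and 4. Jund, the AP-1 member that cells hold at rest, ran the other way, at -0.32. Fosl1, Fosl2, Atf3, Maff and Mafk ranged from -0.08 to 0.28, and all overlapped.

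Zfp36, also called tristetraprolin, binds AU-rich elements and speeds the decay of mRNAs such as those of Fos and Ptgs2. It had signals of 3370 and 2684 on knockout arrays 1 and 3 and 4657 and 3473 on control arrays 1 and 3, against 1327 and 1925 on knockout arrays 2 and 4 and 1758 and 1656 on control arrays 2 and 4. The difference was 1.04, or 2.06-fold. Its relative Zfp36l1 differed by 0.27 without overlap, with 25065 and 24204 on knockout arrays 1 and 3 and 25406 and 23387 on control arrays 1 and 3, against 21341 and 19860 on knockout arrays 2 and 4 and 20889 and 19025 on control arrays 2 and 4. Zfp36l2, of the same family, differed by 0.37 with overlap. Btg1, which recruits the deadenylase complex, was at -0.22 on its brightest probe set, and its 3 tested probe sets ran from -0.60 to 0.45.

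Nr4a1, an orphan nuclear receptor, fell just short of the threshold of 1, at 0.9992. Its signals were 2720 and 4093 on knockout arrays 1 and 3 and 2684 and 4316 on control arrays 1 and 3, against 1618 and 1783 on knockout arrays 2 and 4 and 1599 and 1608 on control arrays 2 and 4. Replicates of 1 number were close to each other, and 99.4% of the sum of squares of Nr4a1 lay between the 4 replicate numbers. Just inside the threshold stood Zfp36, at 1.04. Egr3 and Hbegf followed Nr4a1, both at 0.88.

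Egr1, a zinc finger factor induced by serum, had signals of 37728 and 28312 on knockout arrays 1 and 3 and 48241 and 28320 on control arrays 1 and 3. Its even-numbered arrays had 20758 and 18557 in knockout and 20744 and 22014 in control cells, below all odd-numbered ones. The difference was 0.76. Egr3 had 1815 and 983 on knockout arrays 1 and 3 and 2108 and 1520 on control arrays 1 and 3, against 1152 and 494 on knockout arrays 2 and 4 and 936 and 784 on control arrays 2 and 4. These ranges overlapped, and a dimmer Egr3 probe set gave -0.23. Egr2 and Srf were at 0.12 and -0.15. The other tested Srf probe set gave 0.37, with odd-numbered arrays all above even-numbered ones, so Srf has no settled direction.

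Hbegf, a growth factor shed from the cell surface that binds the EGF receptor, was highest on replicate 1 and lowest on replicate 4 in both groups. It had 2960 and 1509 on knockout arrays 1 and 3 and 2662 and 1407 on control arrays 1 and 3, against 1443 and 794 on knockout arrays 2 and 4 and 1423 and 784 on control arrays 2 and 4. Both arrays of replicate 2 lay just above control array 3, so that Hbegf was not among the 15, and its other tested probe set gave 0.15. Replicate number accounted for 99.5% of its sum of squares, the highest share of these genes. Klf6 and Myc, factors of growth control, and Ier3, a regulator of cell survival, did not overlap and differed by 0.64, 0.66 and 0.72. Myc had 3376 and 3132 on knockout arrays 1 and 3 and 3420 and 3371 on control arrays 1 and 3. Its even-numbered arrays had 2524 and 1551 in knockout and 2929 and 1630 in control cells. Replicate 4 was the lowest of both groups for Myc. Klf6 had 7666 and 6632 on knockout arrays 1 and 3 and 7041 and 6483 on control arrays 1 and 3, against 5206 and 4048 on knockout arrays 2 and 4 and 4633 and 3924 on control arrays 2 and 4. Its 5 tested probe sets ran from 0.29 to 0.76. Ier3 had 6493 and 5275 on knockout arrays 1 and 3 and 7264 and 5011 on control arrays 1 and 3, against 4075 and 3495 on knockout arrays 2 and 4 and 4088 and 2831 on control arrays 2 and 4. Ier5, a nuclear protein of the stress response, differed by 0.28 without overlap, with 7592 and 8220 on knockout arrays 1 and 3 and 7990 and 7978 on control arrays 1 and 3, against 6688 and 6765 on knockout arrays 2 and 4 and 6406 and 6192 on control arrays 2 and 4.

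Other members ran the opposite way. Klf4 and the small GTPase Gem had the lowest values, both at -0.57, and in both the ranges overlapped. Klf4 had 9254 and 17397 on knockout arrays 1 and 3 and 6877 and 13435 on control arrays 1 and 3, against 17320 and 18786 on knockout arrays 2 and 4 and 12994 and 17170 on control arrays 2 and 4. Replicate 1 was the lowest of both groups. Gem had 2206 and 3590 on knockout arrays 1 and 3 and 2232 and 4246 on control arrays 1 and 3, against 3290 and 5027 on knockout arrays 2 and 4 and 4089 and 5585 on control arrays 2 and 4. The GTPases Rhob and Rnd3, the kinase Sik1, Ier2 and Klf10 were also below 0, at -0.15, -0.21, -0.40, -0.34 and -0.29. In all, 29 of the 43 genes were above 0 and 14 below it, each taken at its brightest tested probe set.

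**Figure D2:**
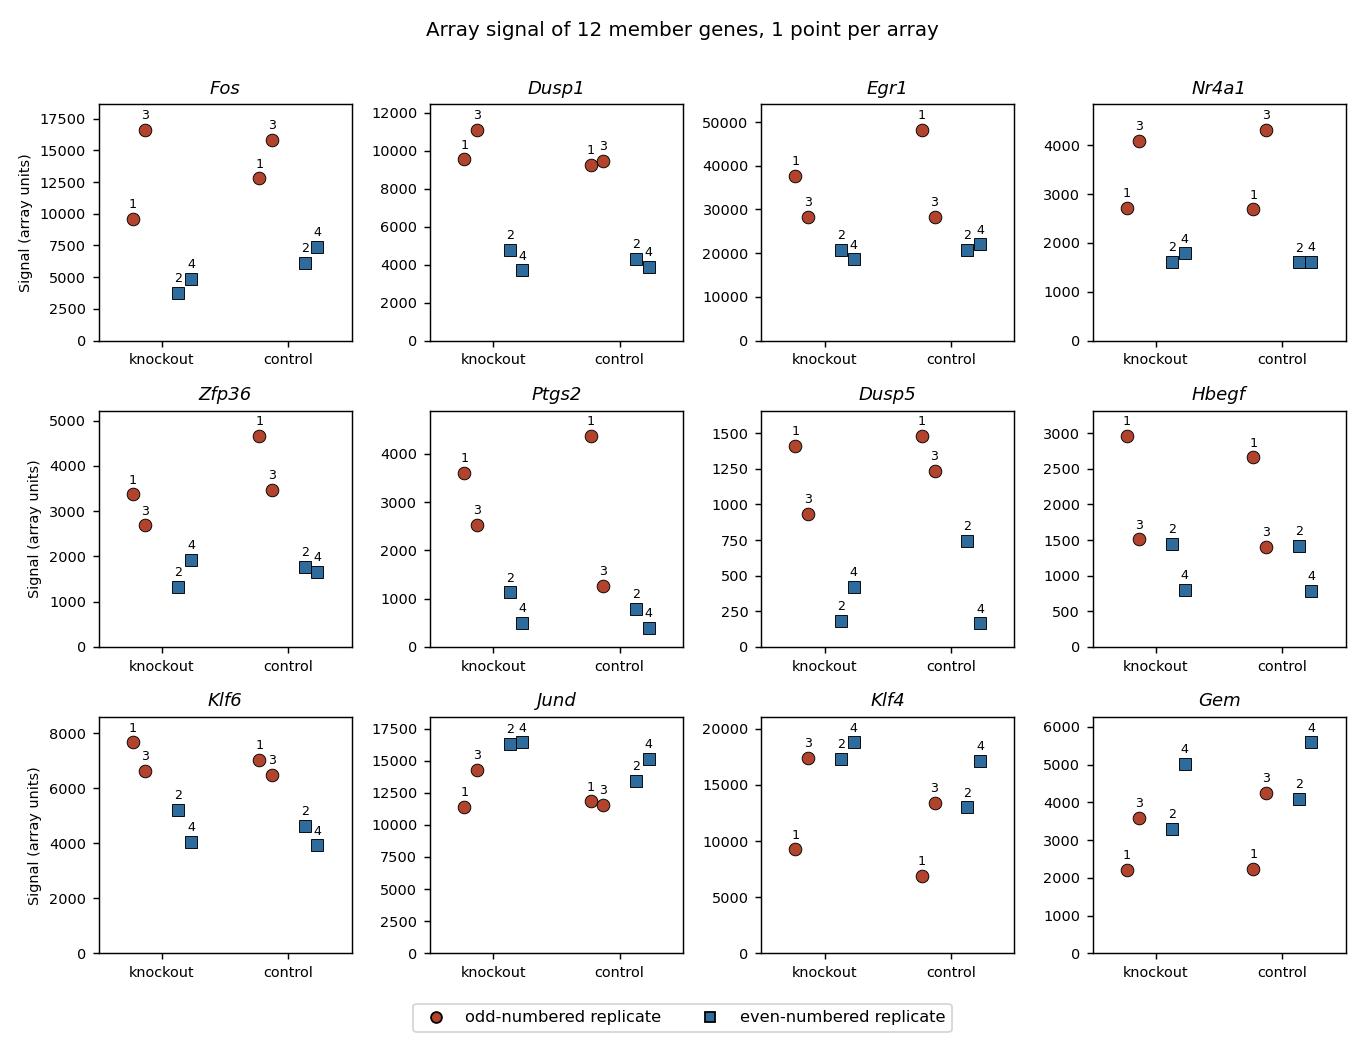
Array signal, in array units from 0, for 12 of the genes, 1 point per array with its replicate number, knockout left of control. For Dusp1, Nr4a1, Zfp36 and Klf6 all odd-numbered points (circles) lie above all even-numbered points (squares), whereas Klf4 and Gem are lowest on replicate 1.

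By role, with each gene taken at its brightest tested probe set, the median odd minus even difference was highest in the Nr4a genes and the Egr and Srf group. It was 0.61 over the 2 tested Nr4a genes, 0.44 over the 4 Egr and Srf genes and 0.42 over the 5 Dusp genes. It was 0.32 over the 4 mRNA-decay genes, 0.25 over 5 signalling genes, 0.22 over the 6 Klf, Myc and Csrnp1 genes and 0.20 over 10 AP-1 genes. The 4 Ier and Phlda1 genes had 0.17, and the 3 GTPase genes had -0.21. The Dusp genes were above 0 in 5 of 5, the GTPases in 0 of 3. The order of the roles rests on few genes and on the probe set chosen. Tested probe sets ran from -0.49 to 0.51 for Nr4a2, from -0.23 to 0.88 for Egr3 and from -0.15 to 0.37 for Srf. Those of Csrnp1 ran from -0.61 to 0.47.

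Within each group the values were as follows, the split in both having been known when the list was drawn up. The sign of the odd minus even difference was the same within knockout and within control arrays for 34 of 43 genes, or 79.1%, against 69.1% of all genes. The median was 0.19 within knockout and 0.34 within control arrays, while all tested genes had -0.003 within knockout and -0.03 within control arrays. Sik1, a kinase that restrains CREB coactivators, was at -0.86 within knockout and 0.07 within control arrays. Rnd3 was at -0.58 within knockout and 0.15 within control arrays.

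**Figure D3:**
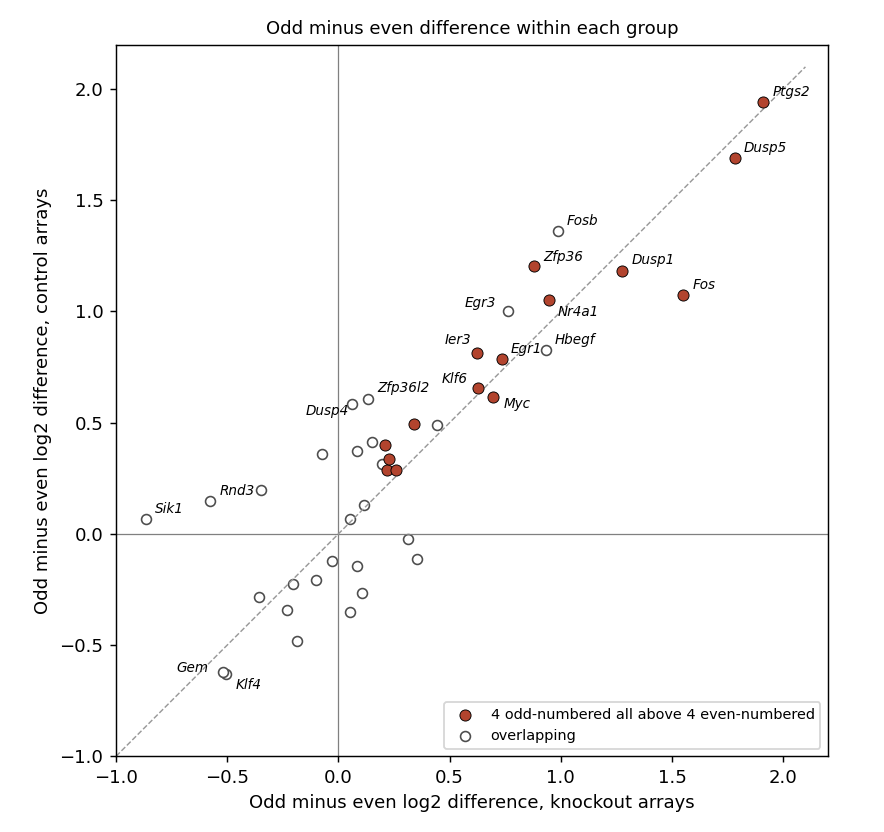
Odd minus even log2(signal + 73.1) difference of each of the 43 genes within knockout arrays (x axis) and within control arrays (y axis), each from 2 against 2 arrays; the dashed line marks equality. Filled points are the 15 genes whose odd-numbered arrays all lie above the even-numbered ones, and Ptgs2 and Dusp5 stand farthest to the upper right.

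The share of the spread that lay between replicate numbers is also fixed in part by the choice of genes, and nothing is read from it. Over the 43 genes a median of 76.4% of the sum of squares lay between the 4 replicate numbers and 4% between knockout and control, against 57.4% and 7.08% over all tested genes. Over 90% lay between numbers for 12 genes, 27.9%, against 8.09% of all genes. Control array 1 held the highest signal of 12 of the 43 genes and control array 4 the lowest of 14, against 14.8% and 13.9% of all genes.

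Several control probe sets of the array also differed between odd- and even-numbered replicates. The 5′ probe set of 18S ribosomal RNA had 5906 to 14007 units on odd-numbered arrays against 30584 to 43030 on even-numbered ones. Its middle probe set had 4488 to 7281 on odd-numbered against 8700 to 12977 on even-numbered arrays, while its 3′ probe set overlapped, at 3228 to 5520 on odd-numbered and 5433 to 8812 on even-numbered arrays. The Gapdh 3′ probe set had 46889 to 54087 on odd-numbered against 57093 to 60407 on even-numbered arrays, and the 5′ one 46484 to 52568 on odd-numbered against 57155 to 63196 on even-numbered ones. The Actb 3′ probe set had 97649 to 107580 on odd-numbered against 107630 to 113990 on even-numbered arrays, and its 5′ one overlapped. The Gapdh 3′ to 5′ ratio was 0.986 to 1.13 on odd-numbered and 0.956 to 0.999 on even-numbered arrays, and that of Actb was 1.66 to 2.06 on odd-numbered and 1.78 to 1.93 on even-numbered arrays. The part of these in the differences between odd- and even-numbered replicates was not tested, and the labels do not say what a replicate number stands for. Macrophage and leukocyte markers summed to 3686 to 4767 on odd-numbered and 3688 to 4141 on even-numbered arrays, and preadipocyte markers to 265697 to 301514 on odd-numbered and 243146 to 284425 on even-numbered arrays.

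Differences between knockout and control arrays were centred on 0 in these genes, and the groups overlapped in each of the 43. The median knockout minus control difference was -0.004 over the 43 genes, ranging from -0.57 to 0.57, and -0.002 over all tested genes, with 21 of 43 above 0. In limma's unpaired fit 0 of 67 probe sets passed an adjusted p of 0.05, against 0.0037% of all 27027. With replicate numbers as pairs, 0 of 67 passed, against 0.0481%. At an unadjusted p under 0.05 the unpaired fit listed 3 of 67, or 4.48%, against 3.77%, and the paired fit 10, or 14.9%, against 9.14%. The knockout and control arrays did not overlap in 0 of 43 genes, against 2.52% of all genes. Over probe sets this was 1 of 67, against 2.46%.

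The summed marker signals of 2 other cell types did not overlap between knockout and control arrays. In the first of these the markers did not move as a set. Pericyte and smooth muscle markers, 6 on the array with 4 tested, summed to 29267 to 38006 on knockout and 18311 to 26152 on control arrays. Most of this sum was smooth muscle actin, Acta2, at 25305 to 34490 on knockout and 14744 to 23499 on control arrays, while the pericyte marker Rgs5 had 154 to 371 on knockout and 276 to 371 on control arrays. The other tested ones, Cspg4 and Des, had knockout minus control differences of 0.05 and 0.03. Skeletal muscle markers, 6 with 2 tested, summed to 1211 to 1740 on knockout and 760 to 1209 on control arrays, and Myf5 was at or under the 20th percentile on all 8. These sums nearly touched. Both tested genes, Ckm at 0.74 and Myod1 at 0.55, had knockout minus control differences above 0, but their ranges overlapped and 0 were called. Of the untested ones, Myog had 50.2 to 197 on knockout and 19.9 to 45.1 on control arrays, while Actn2 and Pax7 overlapped. Myod1 had 380 to 463 on knockout and 143 to 494 on control arrays, and Ckm had 175 to 732 on knockout and 101 to 436 on control arrays. Keratinocyte markers, 6 with 3 tested, overlapped narrowly, at 2603 to 3329 on knockout and 2079 to 2618 on control arrays. The 3 tested genes, Epcam, Trp63 and Krt18, had knockout minus control differences of 0.42, 0.27 and 0.16, and 0 were called. Endothelial markers, 6 with 2 tested, overlapped at 1584 to 2157 on knockout and 1626 to 2317 on control arrays, and Tie1 and Vwf were at or under the 20th percentile on all 8. The part of these in the differences between knockout and control arrays was not tested.

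That 1 probe set belonged to Nr4a2, an orphan nuclear receptor, and was singled out after its values were seen. It had 374, 619, 548 and 439 on knockout arrays 1 to 4, against 89.9, 245, 133 and 253 on control arrays 1 to 4, a difference of 1.20. The other 3 tested probe sets of Nr4a2 went from -0.33 to -0.12, the brightest at -0.22, so the gene has no settled direction. Of the 18 genes with over 1 tested probe set, 7 had the same sign in all of them in knockout against control, and 12 in odd against even. The untested Nr4a3 had 183, 129, 374 and 97.5 on knockout arrays, against 40.6, 80.2, 77.7 and 66.9 on control arrays, in 1 of its 3 dim probe sets. Its other 2 differed by 0.04 and 0.08.

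Fosb and Fos had lower signal in most knockout arrays than in the control array of the same number. For Fosb the mean difference was -0.57 ± 0.51 (SE, n = 4 each, unpaired), below 0 in 4 of 4 pairs. For Fos it was -0.41 ± 0.42 (SE, n = 4 each, unpaired), or ± 0.11 with pairs, with pair 3 at 0.07 and the others at -0.41, -0.69 and -0.60. Egr2, also called Krox20, had 3576, 2751, 3764 and 2957 on knockout arrays 1 to 4 against 3494, 4996, 5076 and 4162 on control arrays 1 to 4. Its difference was -0.43 ± 0.15 (SE, n = 4 each, unpaired), with the groups overlapping through array 1 of control cells. Leaving out 1 array moved the Fosb mean to between -1.05 (without knockout 3) and -0.12 (without control 3) and the Fos mean to between -0.80 (without knockout 3) and -0.09 (without knockout 2). Egr3 and Dusp5 were at -0.28 ± 0.36 and -0.27 ± 0.60, and the Dusp5 pairs ran from -1.67 to 1.05. The other tested Egr3 probe set gave 0.38, so the gene has no settled direction.

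Klf4 and Errfi1 had more signal in knockout than in control cells in every pair on their brightest probe sets. Klf4 had 9254, 17320, 17397 and 18786 on knockout arrays 1 to 4 against 6877, 12994, 13435 and 17170 on control arrays 1 to 4. Each knockout array was above its pair, by 0.42, 0.41, 0.37 and 0.13, although the groups overlapped. The mean was 0.33 ± 0.27 without and ± 0.08 with pairs (SE, n = 4 each), and 0.07 without control array 1 or 0.57 without knockout array 1. Errfi1 encodes an inhibitor of the EGF receptor and had 13709, 11998, 12825 and 11175 on knockout arrays against 12794, 9906, 9113 and 7594 on control arrays. Its difference was 0.35 ± 0.15 (SE, n = 4 each, unpaired), above 0 in 4 of 4 pairs, and its other tested probe set gave 0.29, with pair 4 at -0.12. Neither gene passed the adjusted threshold in either fit.

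The means of Csrnp1, Sik1 and Ptgs2 rested on few arrays. Csrnp1, a nuclear transcription factor, had 1206, 995, 1332 and 836 on knockout arrays against 985, 1712, 726 and 168 on control arrays, with a mean of 0.57 ± 0.46 (SE, n = 4 each). Its pair 4 alone gave 1.92, and pair 2 gave -0.74. The mean was 0.0031 without control array 4, and its other tested probe set gave -0.28. Sik1 had 419, 1019, 627 and 974 on knockout arrays against 428, 437, 577 and 508 on control arrays, with a mean of 0.51 ± 0.25 that came from pairs 2 and 4. Ptgs2 was at 0.36 ± 0.65, below 0 in pair 1. On the brightest probe set, all 4 pairs were above 0 for Fosl1, Klf4, Klf6, Hbegf and Errfi1, 11.6% against 8.64% of all genes, and below 0 for Fosb, Junb, Myc and Gem, 9.3% against 9.44%. In the other tested probe set, pairs above 0 were 2 for Fosl1, 2 for Hbegf, 3 for Errfi1 and 4 for Klf4. For Klf6 the other tested probe sets had 2 to 4. Arc, an effector of synaptic signalling in neurons, had 712, 605, 138 and 137 on knockout arrays against 653, 362, 133 and 425 on control arrays.

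**Figure D4:**
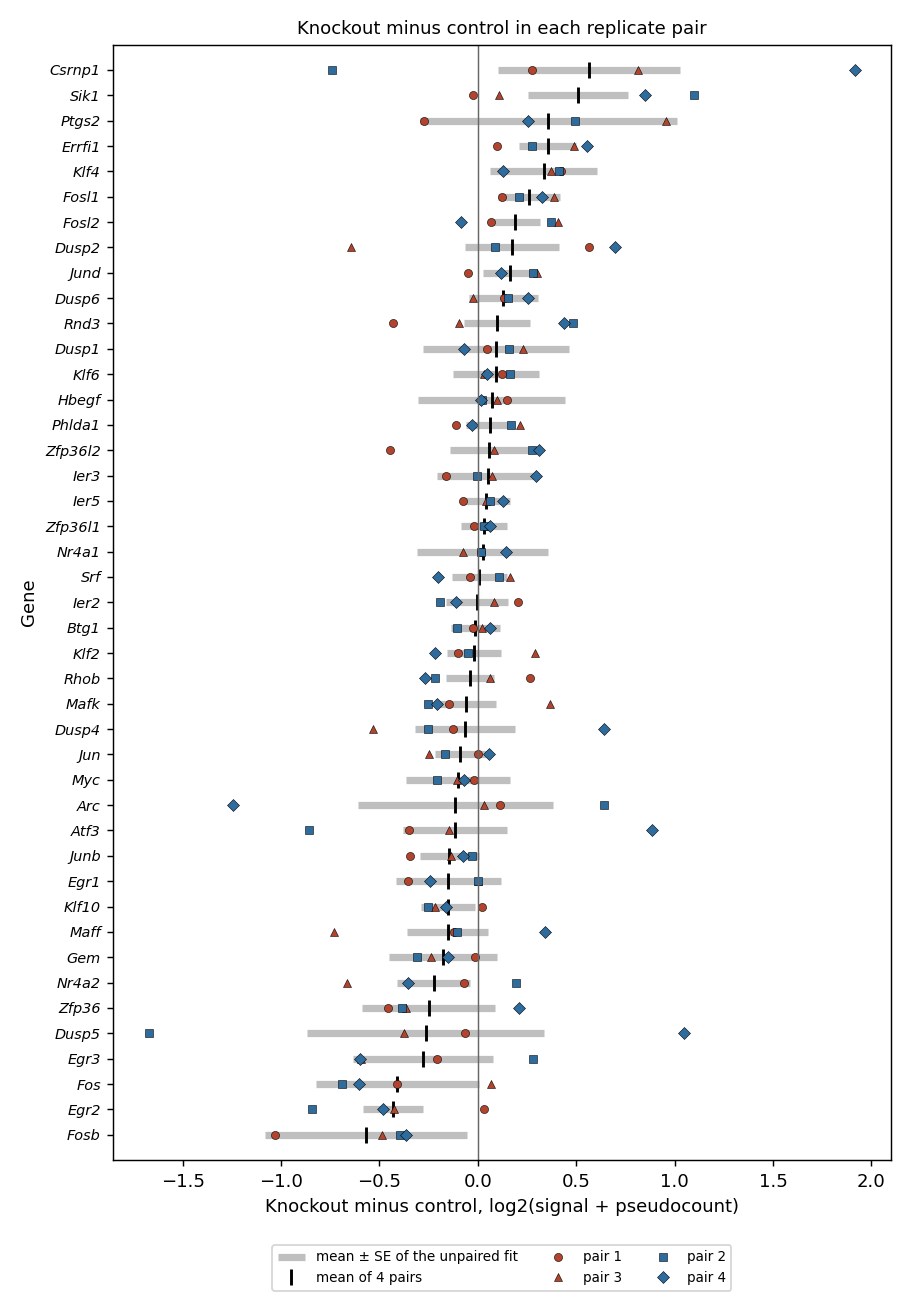
Knockout minus control difference in log2(signal + 73.1) in each of the 4 replicate pairs for the 43 genes, ordered by the mean. Vertical ticks are means of 4 pairs and grey bars their SE in the unpaired fit; pairs of Dusp5, Csrnp1 and Arc spread over more than 1 unit, while those of Klf4 and Klf6 lie close together.

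The knockout difference was also set against itself between odd- and even-numbered pairs, with an interaction term. This term is the odd minus even difference in knockout arrays less that in control arrays, so it is built from values known when the list was drawn up, and it is given as a description. At an adjusted p of 0.05, 0 of 67 probe sets passed in limma, against 0% of all 27027, with 2 arrays per combination. At an unadjusted p under 0.05 there were 2 of 67, or 2.99%, against 1.88%. They belonged to Rnd3, with a knockout difference of -0.26 in odd-numbered and 0.46 in even-numbered pairs, and to Sik1, with 0.04 in odd-numbered and 0.97 in even-numbered pairs.

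Genes around this response were taken from 4 lists, also drawn up with results of these arrays known, and their counts are likewise descriptions. Over all tested genes, 3.93% had an unadjusted p under 0.05 for knockout against control in the unpaired and 10.3% in the paired limma fit, and the adjusted threshold was passed by 0 genes of the 4 lists in either. Of 42 tested other rapid-response genes, 7 (16.7%) unpaired and 18 (42.9%) paired were under that unadjusted p. The largest knockout minus control differences were -0.75 for the pseudokinase gene Trib1, -0.61 for the inhibitory factor Id3 and 0.60 for the chemokine gene Ccl2. The median odd minus even difference of the 42 genes was 0.30, with 7 genes, or 16.7%, above without overlap, against 5.5% of all genes. Trib1 led at 1.68, then Nfkbiz at 1.40 and the matricellular Ccn1 at 1.31.

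Of 25 tested upstream signalling genes, 1 (4%) in the unpaired and 3 (12%) in the paired fit had an unadjusted p under 0.05. The GTPase gene Nras was highest there, at 0.80. Their odd minus even median was 0.21, with 6 (24%) all above, against 5.5% of all genes, and 1 (4%) all below, against 5.79%. The receptor gene Pdgfrb led at 0.87, then the coactivators Crebbp at 0.67 and Ep300 at 0.60. The 15 feedback inhibitors had medians of 0.08 for odd minus even and 0.10 for knockout minus control, with 0 unadjusted in the unpaired and 4 (26.7%) in the paired fit. Among them Rgs2, which limits G-protein signalling, was at -0.77 for odd minus even and -0.34 for knockout minus control. The 11 tested heat-shock and chaperone genes had a median of -0.14 for odd minus even. Of these, 4 (36.4%) were all below without overlap, against 5.79% of all genes, among them Dnajb1 at -0.41 and Hsph1 at -0.38. Another 3 of the 11 were above 0, with Hspa1a the highest at 0.34. For knockout minus control 0 of the 11 in the unpaired and 1 (9.09%) in the paired fit had an unadjusted p under 0.05.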

How the data were processed

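Deposited values were linear array intensity (signal) per probe set, made with GCOS 1.3 and MAS5 per the submitters' processing notes. The authors' 8 columns each had a 2% trimmed mean of 1500, which shows a scaling of every array ahead of deposit, and further normalization is not described in the labels. From these intensities, log2(signal + 73.1) was taken, 73.1 being the 20th percentile of all values, which understates fold changes of dim probe sets. The upper 60% of probe sets by mean log2 value, 27027 without array controls, were tested with limma 3.58.1 in R 4.3.3 (linear model, moderated by an intensity trend, two-sided, Benjamini-Hochberg over all 27027 probe sets). The filter was blind to group. Where a gene had several tested probe sets with 1 symbol in the platform annotation, the brightest stood for it. Of the 45101 probe sets, 34945 had 1 symbol, and RefSeq changed 0 of the symbols used for these genes. Python 3.11.15 with matplotlib 3.10.9 made the figures. The fits were run on simulated data that held no differences between replicate numbers. The unpaired fit was therefore not tested at the spread of these arrays.

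The members and all gene lists were chosen with earlier results of these data known. Values on each array are given for genes whose odd- and even-numbered arrays did not overlap or differed by 1 or more, and for the 10 with the largest knockout minus control difference. Nr4a2, Nr4a3, Hbegf, Gem and Arc are given array by array as well, chosen after their values were seen, and the others by range. For the other lists, genes that were called and the 3 with the largest differences were eligible for naming.

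Knockout and control arrays with the same replicate number deviated together from their group means (correlations over probe sets of 0.341, 0.189, 0.199 and 0.372, all over 0.1). Differently numbered arrays had -0.347 to 0.149. The numbers were therefore taken as pairs in a second fit, although the pairing comes from the data and not from the labels. Precision is limited by the 4 arrays per group. Alternatives were other pseudocounts, filters and normalizations, array weights, and leaving out arrays or pairs.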

Additional observations from a re-analysis of the deposited data

Results flagged for a closer look

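In 86 combinations of a group and a gene, the lowest or highest of the 4 arrays was set against the other 3, and 2 stood far apart, where chance picks out about 1 in 20. Fosb stood out on knockout array 3, with a signal of 941 against 176 to 214 on the other knockout arrays. The gap took up 0.9 of the range on the log2 scale, and control array 3 was also the highest of its group, at 1347. Klf4 stood out on knockout array 1, with 9254 against 17320 to 18786 on the other knockout arrays, a gap of 0.885 of the range. Control array 1 was also the lowest of its group for Klf4, at 6877. The cause of either was not tested.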

How the results depend on the processing

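Under each alternative run, including the fit that takes replicate number as a block (paired), 0 of these probe sets passed the adjusted threshold for knockout against control (10 unadjusted in the paired fit, 3 in the unpaired). For the interaction 0 passed with quantile normalization, no filter, the upper 40% kept or any 1 array left out, the only alternatives run for it (0 to 4 unadjusted). The count of genes whose odd-numbered arrays lay apart was 15 of 43, or 34.9%, with 11.3% of all genes apart in either direction. It was 24 of 43 within knockout and 26 of 43 within control arrays, against 40.4% and 39.9% of all genes. Arrays set 2 against 2 overlap less by construction. With 1 array left out it was 15 to 20 of 43, against 13.4% to 17.6% of all genes. Without both arrays of a number, an alternative added after seeing the data, it reached 31 of 43 without replicate 3, against 32.6% of all genes. Without replicate 2 it was 23 of 43, against 31.2% of all genes. The odd minus even median was 0.339 in control arrays alone and 0.189 to 0.372 with arrays left out (0.372 without both arrays of replicate 2). The knockout minus control median, main value -0.0039, changed sign between -0.0879 (without control array 4) and 0.0693 (without control array 1). Knockout differences of single genes were rerun only for the 10 genes with the largest ones, and not for the smaller differences of the other genes. With 1 array left out, 3 of these 10 changed sign. Ptgs2 ranged from -0.109 (without control 4) to 0.969, Egr3 from -0.546 to 0.0324 (without knockout 4) and Dusp5 from -0.845 to 0.188 (without knockout 2). Dusp5 was at 0.203 in the paired fit without pair 2. For odd minus even, Fosb had 1.98 and Egr1 0.466 without replicate 1, Nr4a1 had 0.687 without replicate 3, and Myc had 0.282 without replicate 4. Median centring gave 12 of 43 genes with odd-numbered arrays apart, against 9.32% of all genes, and a median of 0.205. The cause of these changes was not tested.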
